A study of Sus scrofa with 6 samples.

Results

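The 10 genes described here carry fibroblast growth factor (FGF) signals and their feedback: the receptors FGFR1, FGFR2, FGFR3 and FGFR4, the ligands FGF8, FGF10 and FGF18, and the Sprouty genes SPRY1, SPRY2 and SPRY4. They were picked by name from the 27469 annotated genes of the pig genome. Every peak of open chromatin that overlapped a gene body or the 2 kb before its start was assigned to that gene, which is called its window. Peaks of the libraries that overlapped were merged into regions, and 162 of the 294825 regions of the genome fell into the 10 windows. Of these, 55 held a peak in all 6 libraries, against 78533 regions genome-wide.

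The assay was single-cell ATAC-seq, which uses the transposase Tn5 to cut accessible DNA and labels the fragments of a droplet with its barcode. The 6 libraries came from somites at embryonic day 18 (E18), somites at embryonic day 21 (E21) and myotomes at embryonic day 28 (E28), each stage with 1 library of Tibetan pigs (ZZ) and 1 of Duroc x Tibetan pigs (DZ). Somites are the paired blocks of the trunk from which skeletal muscle, cartilage and dermis arise, and the myotome is their muscle-forming part. Every library pooled 5 embryos of a single sow, so breed, sow and library cannot be told apart within a stage, and the tissue taken changed together with the stage at E28.

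FGF ligands bind receptor tyrosine kinases on neighbouring cells and switch on the RAS and MAPK cascade. In the embryo they set the pace of somite formation and act on the growth and differentiation of muscle precursors. The Sprouty proteins are made in response to the same signal and dampen it from inside the cell. Accessibility of a gene is not its expression, and every value below refers to Tn5 cuts in called peaks.

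Between 9286 and 11243 barcodes per library had 2000 to 30000 counts and were kept, and their counts summed to 89816504 to 133037579 per library. Any pair of libraries had 113 to 157 barcodes in common. Peaks had been called in each library on its own, and the sequence covered by peaks shrank from 191 and 168 Mb at E18 to 102 and 108 Mb at E28. Where a library lacked a peak, the level is given as 0. Levels are given as counts per 1000000 counts of the library (CPM), always in the order ZZ, DZ. Differences between stages were tested in edgeR by quasi-likelihood, with terms for stage and breed, and a difference was called at a Benjamini-Hochberg adjusted p under 0.05 over all genes or regions. In sums over a library, fewer cells of a type and less open chromatin per cell cannot be told apart. The labelled tissue was checked on the 13 myogenic marker genes, whose windows summed to 579 to 596 CPM at E18 and 506 to 649 CPM at E28. Epithelial markers, in contrast, summed to 369 to 371 CPM at E18 and to at most 169 CPM at E28, and neural progenitor markers to 594 to 648 and 306 to 385 CPM, so the libraries held other cells than muscle cells.

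Between E18 and E28, the windows of the receptors FGFR2 and FGFR3 fell and all 3 Sprouty windows rose. The ligand FGF18 was lower at E28 as well. FGFR1 also passed the test as lower, but that call rests on 1 peak of the neighbouring gene LETM2, which entered its window in E18 ZZ alone, and was lost when every library was filled by the same regions. FGFR4, FGF8 and FGF10 did not pass the test. The 7 of 10 windows called (4 lower, 3 higher) stand against 42.9% of all 22813 windows tested, 22.1% lower and 20.8% higher. The median log2 fold change was -0.60 over the 4 receptors and 0.44 over the 3 Sprouty genes, beside -0.04 over all windows tested. In 9 of the 10 windows the libraries of E28 did not overlap those of E18, which was true of 78.6% of all windows. In an alternative chosen after the data were seen, each merged region that touches a window was counted whole in every library. It called 6 of the 10 windows, against 46.9% of all, and the 1 call lost was FGFR1. In this alternative FGFR1, FGFR2, FGFR3 and FGFR4 changed by -0.19, -0.73, -0.74 and -0.20, and SPRY1, SPRY2 and SPRY4 by 0.53, 0.43 and 0.34. Over the regions of no other window, which FGF10 lacks, 6 of 9 were called, against 41.6%, and again without FGFR1.

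**Figure D1:**
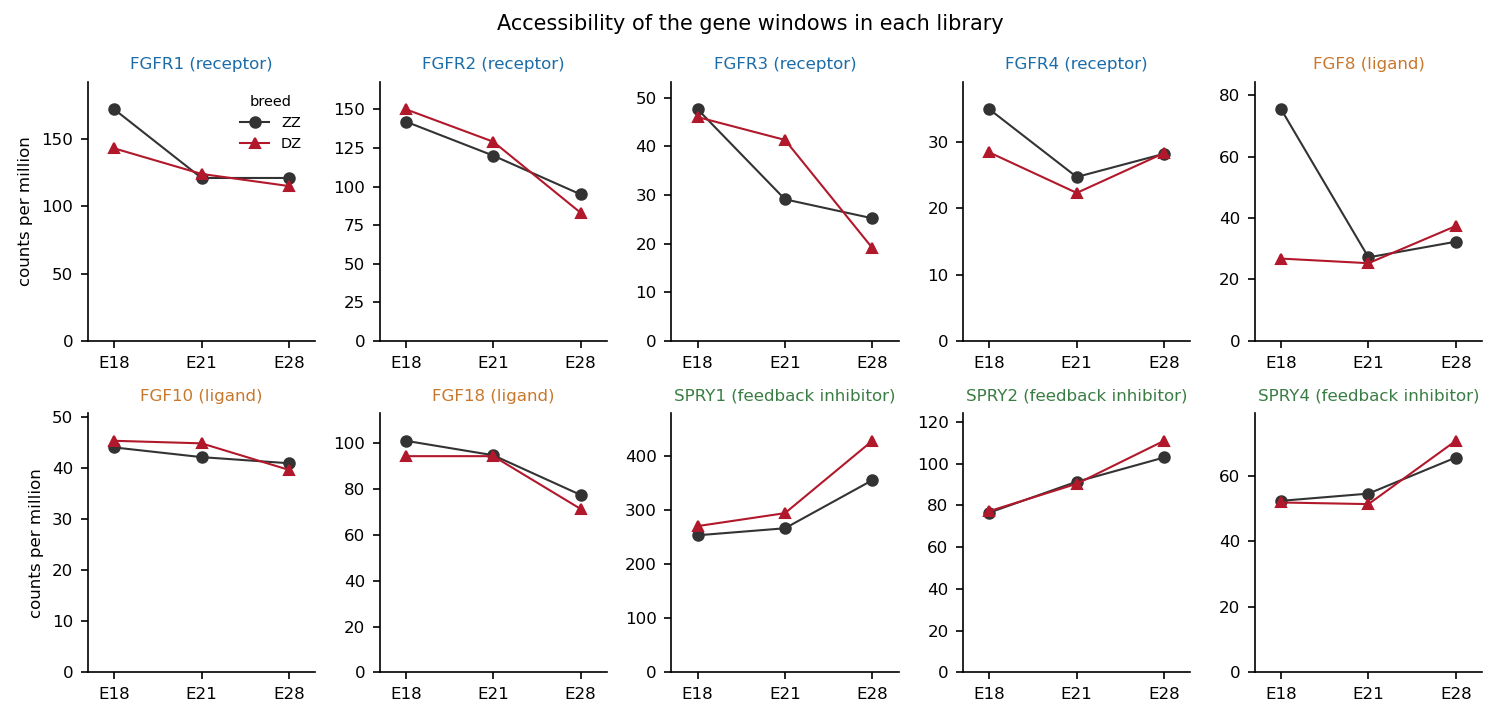
CPM of each gene window (vertical axis) in the 6 libraries by stage (horizontal axis), with circles for ZZ and triangles for DZ; lines join the libraries of a breed. The 3 Sprouty windows are highest at E28 in both breeds, FGFR2 and FGFR3 are lowest there, and FGF8 has 1 high library, E18 ZZ at 75.4 CPM.

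The calls depended on the libraries of E18, as did those of all windows. Without E18 DZ 1 window passed (FGF8, at -1.19), when 6.55% of all windows did, and without E18 ZZ 2 passed (FGFR2 and SPRY1), when 20% did. Without any 1 of the 4 other libraries 5 to 6 passed, against 31.3% to 41% of all windows. Each of these fits rests on 5 libraries, and a stage left with 1 library is assumed to vary like the others. The FGF8 value of -1.19 rests for E18 on E18 ZZ, where 1 wide peak ran on to the neighbouring gene NPM3. With regions counted whole in all 6 libraries FGF8 changed by -0.10.

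The length of sequence called as peaks moved with these differences. In the FGFR2 window it fell to 0.46 of its E18 value at E28, in FGFR3 to 0.29 and in FGF18 to 0.40. In FGFR1 it fell to 0.48 with the LETM2 peak of E18 ZZ and to 0.59 over the regions of no other gene, whereas in SPRY2 it was 1.07 times as long. When counts per covered base were compared instead, the median of all windows shifted by 0.55 on the log2 scale and every one of the 10 windows came out above 0. On this scale 8 of the 10 were called between E28 and E18, against 68.7% of all windows, and 4 between E28 and E21, against 43.5%. With promoter peaks alone 3 of 10 were called between E28 and E18, against 29.8%, and 0 between E28 and E21, against 2.54%. Relative to that shift, 5 windows lay above the median window and 5 below. FGF18 (0.31), SPRY1 (0.26), SPRY4 (0.12), FGFR3 (0.08) and FGFR1 (0.02) lay above. FGF10 (-0.52), FGF8 (-0.30), SPRY2 (-0.23), FGFR2 (-0.19) and FGFR4 (-0.10) lay below. Relative to the median window, FGFR1, FGFR3, FGF18 and SPRY2 thus had the other sign than by counts, FGFR1 and FGFR3 being close to that window. FGFR2, SPRY1 and SPRY4 had the same sign by both measures. The distance from the median window was not tested.

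**Figure D2:**
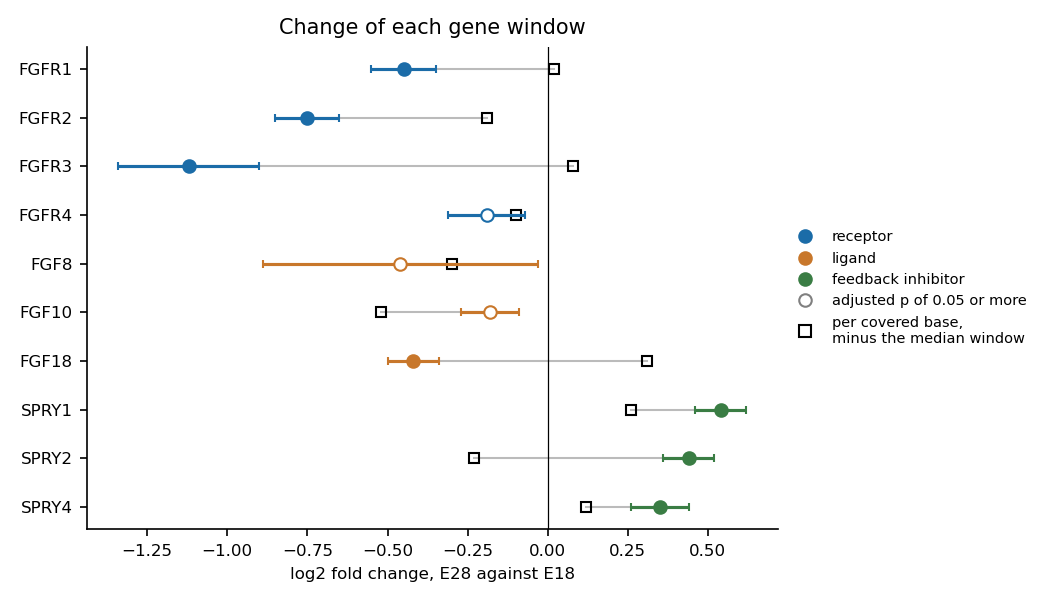
Log2 fold change of each gene window between E28 and E18 (horizontal axis). Circles give the change of the counts with its standard error, filled where the adjusted p was under 0.05, and squares give the change per covered base after subtracting that of the median window. FGFR3 is at -1.12 by counts and at 0.08 per covered base, and SPRY1 is at 0.54 and 0.26.

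FGFR1, the main receptor of mesenchymal and muscle precursor cells, lies on chromosome 15 (Sscrofa11.1, 48053895 to 48106634, forward strand). Its window held 172 and 142.7 CPM at E18, 121 and 124 CPM at E21 and 121 and 115 CPM at E28. Both E18 libraries lay above all later ones. The fitted log2 fold change from E18 to E28 was -0.45 ± 0.10 (SE; adjusted p = 0.0241). In E18 ZZ 1 wide peak reaches from the last exons of FGFR1 into LETM2 and adds 30.6 CPM to the window, which had 30410 covered bases there against 11452 to 18442 in the other libraries. In the other libraries nearly all of that signal lies in peaks that start beyond the gene and are not in the window. Over the 12 regions that overlap no other window, each E18 library held 142 CPM, and the log2 fold change was -0.24 ± 0.08 (adjusted p = 0.054). With the LETM2 region counted whole in every library it was -0.19 ± 0.08 (adjusted p = 0.0907), and without E18 ZZ -0.30 (adjusted p = 0.141). The promoter region did not pass the test. It held 49.0 and 52.5 CPM at E18, 47.9 and 51.5 CPM at E21 and 52.0 and 50.6 CPM at E28, with a log2 fold change from E18 to E28 of -0.03 ± 0.09 (adjusted p = 0.818). Among the 5 other regions present in all libraries, the intronic region 15.4 kb after the start fell, from 31.1 and 27.1 CPM at E18 to 18.3 and 10.3 CPM at E28 (log2 fold change -1.11, adjusted p = 0.0118). The merged region shared with LETM2 held 30.6 and 26.0 CPM at E18 and 31.1 and 40.4 CPM at E28.

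FGFR2, which exists as an epithelial and a mesenchymal splice form, lies on chromosome 14 (131183095 to 131285001, reverse strand). Its window stepped down from 142 and 150 CPM at E18 to 120 and 129 CPM at E21 and 94.9 and 83.0 CPM at E28. The stages did not overlap. The log2 fold change was -0.75 ± 0.10 between E28 and E18 (adjusted p = 0.00659) and -0.52 ± 0.10 between E28 and E21 (adjusted p = 0.0475). Here the promoter region fell too. It held 59.5 and 69.7 CPM at E18, 60.8 and 61.5 CPM at E21 and 45.3 and 37.4 CPM at E28 (between E28 and E21 a log2 fold change of -0.54 ± 0.12, adjusted p = 0.0486, and between E28 and E18 of -0.69 ± 0.12, adjusted p = 0.00845). Per covered base the promoter region lay 0.59 below the median region, whose shift was 0.43. With the promoter, 5 of the 8 regions of FGFR2 present in all libraries fell and none rose, and the other 3 did not pass. Over all regions tested 18.1% fell and 19% rose.

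The 3 largest called falls of non-promoter regions of the 10 genes lay in introns of FGFR2. The region chr14:131257852-131258869, 26.6 kb after the start, held 3.85 and 3.42 CPM at E18, 2.3 and 1.96 CPM at E21 and 0.779 and 1.02 CPM at E28 (log2 fold change -2.05 ± 0.38, adjusted p = 0.0106). The region 90.4 kb after the start changed by -1.73 ± 0.35 and that at 11.0 kb by -1.54 ± 0.23. The covered length of these 3 regions differed between libraries by 3.05 to 3.95 times. Relative to the median region their counts per covered base were lower by 0.95, 0.32 and 0.41 on the log2 scale.

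The central 250 bases of the most reduced FGFR2 intron region and the 250 bases before the FGFR2 start are shown because the gene fell at both places. Sequences are from the RefSeq assembly Sscrofa11.1, read 5′ to 3′ on the strand of the gene. Capitals mark matches, on either strand, to 3 short motifs: CAGCTG, the E-box bound by myogenic factors, TGANTCA, bound by AP-1, and CCGGAA, bound by ETS factors. The intron segment (chr14:131258235-131258484, 50.8% G or C) holds 2 E-boxes and 1 AP-1 match. The promoter segment (chr14:131285002-131285251, 57.2% G or C) holds none of the 3.
FGFR2 intron: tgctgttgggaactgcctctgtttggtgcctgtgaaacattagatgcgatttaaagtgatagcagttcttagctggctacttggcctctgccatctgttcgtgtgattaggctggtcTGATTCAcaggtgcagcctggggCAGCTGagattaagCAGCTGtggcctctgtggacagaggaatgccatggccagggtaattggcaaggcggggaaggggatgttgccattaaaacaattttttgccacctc
FGFR2 promoter: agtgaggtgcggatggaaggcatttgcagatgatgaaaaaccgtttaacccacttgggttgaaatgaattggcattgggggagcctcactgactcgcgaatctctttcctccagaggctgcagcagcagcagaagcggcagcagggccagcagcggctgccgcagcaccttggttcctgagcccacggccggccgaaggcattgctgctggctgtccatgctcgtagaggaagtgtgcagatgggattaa
Among the central 250 bases of all 78533 shared regions, 20.7% held CAGCTG, 7.86% TGANTCA and 6.98% CCGGAA. Among the 250 bases before the start of 27459 genes the shares were 15%, 6.01% and 11.5%. A match is a run of letters and does not show that a factor was bound.

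FGFR3, the receptor best known from growth plate cartilage, lies on chromosome 8 (879151 to 894968, forward strand). Its window held 47.6 and 46.0 CPM at E18, 29.1 and 41.3 CPM at E21 and 25.2 and 19.1 CPM at E28. By peaks in the window it had the largest log2 fold change of the receptors from E18 to E28, -1.12 ± 0.22 (adjusted p = 0.0146). Its promoter region fell from 33.0 and 31.9 CPM to 25.2 and 19.1 CPM (log2 fold change -0.61 ± 0.14, adjusted p = 0.0218), and per covered base it equalled the median region to 2 decimals. The only other region present in all libraries lies at the 3′ end and also overlaps LETM1, with 13.8 and 13.2 CPM at E18 and 6.20 and 7.60 CPM at E28. In E21 ZZ and both E28 libraries the peaks of that region did not reach the gene, so the window there consists of the promoter region alone. With that region counted whole in every library the log2 fold change of the window was -0.74 ± 0.10 (adjusted p = 0.0033), beside -0.73 for FGFR2. Over the regions of no other window it was -0.57 ± 0.14 (adjusted p = 0.0255), beside -0.67 for FGFR2.

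FGFR4, the receptor typical of differentiating muscle, lies on chromosome 2 (80841536 to 80853791, reverse strand). Its window held 34.9 and 28.4 CPM at E18, 24.7 and 22.3 CPM at E21 and 28.2 and 28.3 CPM at E28, a log2 fold change of -0.19 ± 0.12 (adjusted p = 0.241). Its regions differed. The promoter region fell from 22.5 and 20.6 CPM to 17.6 and 11.8 CPM (log2 fold change -0.62 ± 0.16, adjusted p = 0.0275), and per covered base it lay 0.48 below the median region. The exonic region at the 3′ end, 12.4 kb after the start, held 10.2 and 7.36 CPM at E18 and 10.6 and 16.4 CPM at E28 (log2 fold change 0.55, adjusted p = 0.217).

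FGF8, the ligand of the tail bud and of several embryonic signalling centres, lies on chromosome 14 (112808215 to 112814225, reverse strand). Its window held 75.4 and 26.8 CPM at E18, 27.2 and 25.3 CPM at E21 and 32.3 and 37.4 CPM at E28. The single high value comes from E18 ZZ, where 13167 bases of the window were covered by peaks against 5438 to 6718 in the other libraries, where 1 wide peak ran on to the neighbouring gene NPM3. The fitted log2 fold change was -0.46 ± 0.43 (adjusted p = 0.410), 0.39 without E18 ZZ (adjusted p = 0.183) and -0.10 ± 0.09 with the regions counted whole in every library (adjusted p = 0.377). The merged promoter region, which includes the NPM3 part in all libraries, held 67.8 and 61.0 CPM at E18, 51.6 and 49.2 CPM at E21 and 64.2 and 63.0 CPM at E28.

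FGF10, the mesenchymal ligand of limb and lung buds, lies on chromosome 16 (28695465 to 28779953, reverse strand). Its window was nearly level at 44.1 and 45.4 CPM at E18, 42.2 and 44.9 CPM at E21 and 41.0 and 39.7 CPM at E28 (log2 fold change -0.18 ± 0.09, adjusted p = 0.147). Most of it lies in a region around the first coding exon, 2.91 kb after the annotated start, which fell from 36.6 and 38.1 CPM at E18 to 29.7 and 23.5 CPM at E28 (log2 fold change -0.54 ± 0.12, adjusted p = 0.0184). Its covered lengths differed by 1.26 times at most, and in the fit of regions of such even length alone it was the largest fall (-0.78). This region also overlaps LOC102161640. At the annotated start itself no peak was called at E18. That region held 0.936 and 1.14 CPM at E21 and 2.12 and 5.31 CPM at E28, and it was not tested because it lacked a peak in some libraries.

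FGF18, a ligand of FGFR3 in developing bone and cartilage, lies on chromosome 16 (52724867 to 52760246, reverse strand). Its window held 101 and 94.3 CPM at E18, 94.7 and 94.3 CPM at E21 and 77.4 and 71.3 CPM at E28. Both E28 libraries lay below all others, with a log2 fold change of -0.42 ± 0.08 against E18 (adjusted p = 0.0129). The promoter region did not pass the test, with 53.8 and 48.8 CPM at E18 and 51.1 and 45.7 CPM at E28 (log2 fold change -0.13, adjusted p = 0.295). The calls lay in the gene body. An intronic region 17.7 kb after the start fell from 16.0 and 15.6 CPM to 7.06 and 5.45 CPM (-1.40, adjusted p = 0.00511) and a region with a coding exon at 28.4 kb from 20.2 and 20.1 CPM to 13.9 and 11.0 CPM (-0.75, adjusted p = 0.0266). Per covered base the first lay 0.66 below the median region and the second, whose covered length differed by 2.74 times, 0.01 above. Between them, at 24.5 kb, an intronic region rose from 1.88 and 1.31 CPM to 4.70 and 9.19 CPM (2.05, adjusted p = 0.0177).

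SPRY1, a feedback inhibitor known from satellite cells and the kidney, has the longest window of the 10, since RefSeq extends the gene over 414305 bases of chromosome 8 (100449476 to 100863780, reverse strand) through non-coding transcripts. Its coding transcripts span 8.84 kb at the upstream end. The window held 254 and 271 CPM at E18, 267 and 295 CPM at E21 and 356 and 429 CPM at E28. The log2 fold change was 0.54 ± 0.08 between E28 and E18 (adjusted p = 0.00883) and 0.45 ± 0.08 between E28 and E21 (adjusted p = 0.0473). Without the term for breed the latter call was lost (adjusted p = 0.10). Most of the counts lay far from the coding part. The 3 regions of the coding span with its 2 kb upstream held 49.4 and 52.1 CPM at E18 and 57.8 and 69.5 CPM at E28, 1.25 times the E18 mean. The other 76 regions held 205 and 219 CPM at E18 and 298 and 360 CPM at E28, 1.55 times the E18 mean. This division of the window was made after its values were seen. The promoter region, with 46.7 and 50.5 CPM at E18 and 57.4 and 64.2 CPM at E28, did not pass the test (0.28 ± 0.10, adjusted p = 0.0823).

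SPRY1 held 23 of the 55 regions of the 10 genes that were present in all libraries. Of these 23, 10 rose, 5 fell and 8 did not pass, where 19% of all 78533 regions rose and 18.1% fell. Of the 5 largest called rises of non-promoter regions among the 10 genes, 4 were SPRY1 introns. The region chr8:100523474-100526037, 339 kb after the annotated start, held 5.55 and 7.15 CPM at E18, 23.9 and 34.2 CPM at E21 and 50 and 71.9 CPM at E28. Each stage lay above the one before. The log2 fold change was 3.20 ± 0.12 between E28 and E18 (adjusted p = 0.00234), made up of 2.11 ± 0.12 from E18 to E21 (adjusted p = 0.0162) and 1.09 ± 0.11 from E21 to E28 (adjusted p = 0.0245). The region chr8:100726853-100729448, at 136 kb, held 6.37 and 4.47 CPM at E18, 13.1 and 16.2 CPM at E21 and 43.4 and 41.7 CPM at E28 (2.93 ± 0.24, adjusted p = 0.00256). The region at 185 kb held 5.06 and 7.74 CPM at E18, 12.2 and 15.8 CPM at E21 and 24.6 and 37.5 CPM at E28 (2.23 ± 0.16, adjusted p = 0.00235). At 153 kb a weaker region went from 0.774 and 0.754 CPM to 5.31 and 6.25 CPM (2.86 ± 0.35, adjusted p = 0.00423). All 4 were also called between E21 and E18. Per covered base the regions at 339, 136 and 185 kb lay 2.41, 2.32 and 2.36 above the median region, and that at 153 kb, whose covered length differed by 5.90 times, 0.63 above.

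Of the 5 SPRY1 falls 4 lay between 20.5 and 84.8 kb after the start. At 37.9 kb the level fell from 13.5 and 15.0 CPM at E18 to 6.60 and 7.84 CPM at E21 and 5.40 and 5.40 CPM at E28 (-1.44 ± 0.21, adjusted p = 0.00598), and at 20.5 kb from 5.74 and 7.52 CPM at E18 to 2.83 and 2.27 CPM at E28 (-1.41 ± 0.29, adjusted p = 0.0152). The region at 69.7 kb, which also overlaps LOC106504731, changed by -1.18, that at 84.8 kb by -0.72 and that at 375 kb by -0.52. A region at 17.7 kb rose from 1.88 and 1.44 CPM to 5.75 and 3.51 CPM (1.41 ± 0.40, adjusted p = 0.0376).

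The central 250 bases are shown of the SPRY1 intron region with the largest rise and of that with the largest rise among regions of even covered length (chr8:100524630-100524879, 39.2% G or C, and chr8:100728025-100728274, 50.4% G or C). Neither segment holds a match to the 3 motifs named above, so no letters are in capitals.
SPRY1 intron at 339 kb: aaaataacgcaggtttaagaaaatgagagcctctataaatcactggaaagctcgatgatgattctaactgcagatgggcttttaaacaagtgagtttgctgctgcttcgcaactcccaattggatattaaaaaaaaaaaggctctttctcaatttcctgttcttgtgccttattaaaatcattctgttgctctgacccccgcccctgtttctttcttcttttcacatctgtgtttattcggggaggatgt
SPRY1 intron at 136 kb: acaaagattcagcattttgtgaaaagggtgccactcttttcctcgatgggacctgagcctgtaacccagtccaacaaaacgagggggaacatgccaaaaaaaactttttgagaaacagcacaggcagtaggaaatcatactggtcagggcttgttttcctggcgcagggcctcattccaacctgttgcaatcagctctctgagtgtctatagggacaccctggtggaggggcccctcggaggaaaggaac
The median share of G or C was 51.6% over the same central 250 bases of all shared regions.

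**Figure D3:**
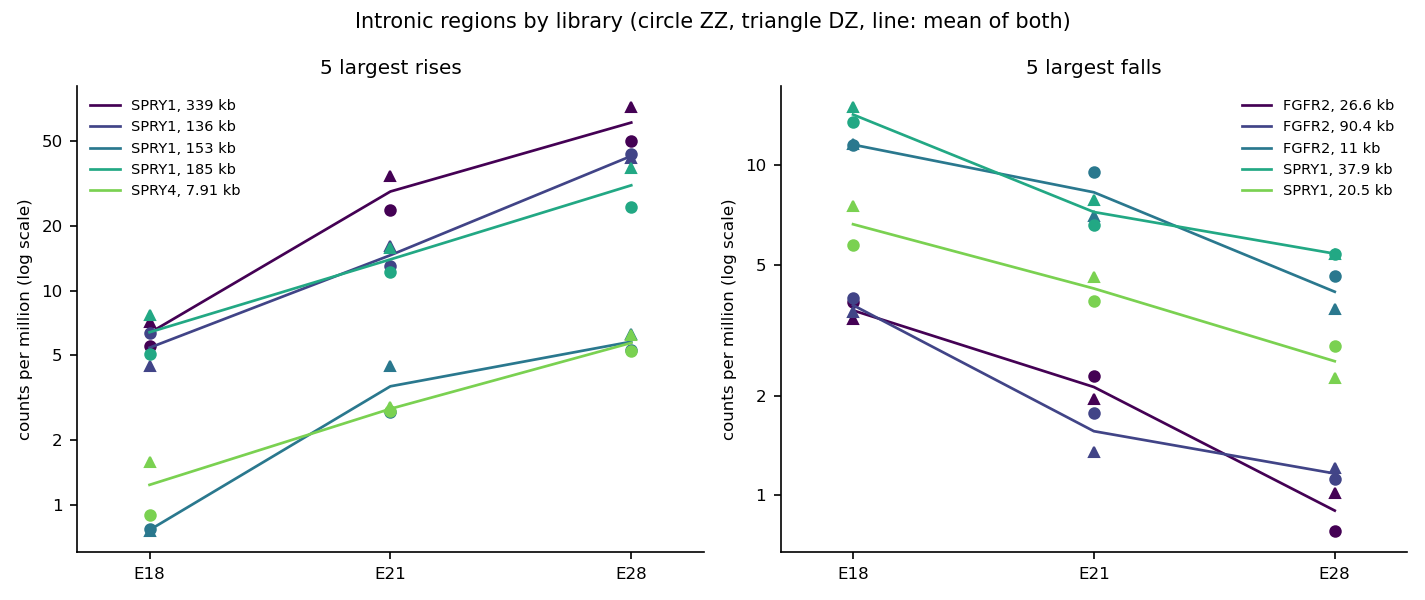
CPM (vertical axis, log scale) by stage of the 5 non-promoter regions of the 10 genes with the largest rise (left) and fall (right) between E18 and E28, named by gene and by distance of their centre from the gene start. Circles are ZZ, triangles DZ and lines the mean of both; the SPRY1 region at 339 kb reaches 71.9 CPM in E28 DZ.

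SPRY2, the Sprouty gene with the broadest expression, lies on chromosome 11 (52153695 to 52158766, reverse strand), and its window is 1 region that spans the promoter and most of the gene, up to base 52154374 near the 3′ end. It held 76.6 and 77.3 CPM at E18, 91.4 and 90.4 CPM at E21 and 103 and 111 CPM at E28. The stages did not overlap. From E18 to E28 the log2 fold change was 0.44 ± 0.08 for the window (adjusted p = 0.0146) and 0.43 ± 0.08 for the region (adjusted p = 0.0134). Neither single step passed. Per covered base the region lay 0.10 below the median region. In the fit of regions of even covered length alone the call was lost, with a log2 fold change of 0.18 (adjusted p = 0.193). Values in that fit were lower for other regions too. The SPRY1 intron at 136 kb had 2.69 there against 2.93 in the fit of all regions, and the FGF10 region -0.78 against -0.54. Normalization factors were computed anew in the fit of even covered lengths, from its own regions alone. Their part in the lost SPRY2 call was not tested. The SPRY2 region was the 1 promoter region called higher at E28 among the 9 tested of the 10 genes. The 250 bases before the start (chr11:52158767-52159016) are shown as a part of it that was not tested alone. They have 68.4% G or C and 1 match to CCGGAA in capitals.
SPRY2 promoter: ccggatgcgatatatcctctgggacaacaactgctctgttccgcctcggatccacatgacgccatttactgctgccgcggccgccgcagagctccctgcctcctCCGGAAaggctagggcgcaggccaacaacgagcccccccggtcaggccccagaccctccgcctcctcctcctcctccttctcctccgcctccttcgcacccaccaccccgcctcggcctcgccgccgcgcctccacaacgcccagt

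SPRY4, an inhibitor of the same family known from blood vessels, lies on chromosome 2 (143877334 to 143891280, reverse strand). Its window held 52.3 and 51.8 CPM at E18, 54.5 and 51.3 CPM at E21 and 65.5 and 70.6 CPM at E28 (log2 fold change 0.35 ± 0.09, adjusted p = 0.0318). The promoter region carried 84.5% to 88.1% of these counts and had 46.1 and 44.9 CPM at E18 and 55.6 and 60.6 CPM at E28, which did not pass (0.31 ± 0.10, adjusted p = 0.0619). An intronic region 7.91 kb after the start rose from 0.902 and 1.58 CPM at E18 to 2.75 and 2.87 CPM at E21 and 5.21 and 6.21 CPM at E28 (2.19 ± 0.33, adjusted p = 0.00638).

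Set side by side, 4 of the 9 tested promoter regions were called between E28 and E18, with FGFR2, FGFR3 and FGFR4 lower and SPRY2 higher, against 40.1% of all 13997 promoter regions tested (16.2% lower, 23.8% higher). Of the 46 other regions 26 were called, 12 higher and 14 lower, against 36.5% of 64536 (18% higher, 18.5% lower). Over all 55 regions it was 30, 13 higher and 17 lower, against 37.1% (19% higher, 18.1% lower). Of the 30 called, 12 of 13 rises and 14 of 17 falls kept their side of the median region when counts per covered base were compared. The exceptions were the SPRY2 region, the FGFR3 3′ region, the FGF18 region at 28.4 kb and the FGFR3 promoter region, which lay at the median to 2 decimals. Among the 17 regions whose covered lengths lay within 1.5 times of each other, 9 were called in a fit of such regions alone, 6 higher and 3 lower, against 35% of 25935 (18% higher, 17% lower). The rises there were led by SPRY1 introns at 136 kb (2.69), 216 kb (1.42), 17.7 kb (1.17) and 344 kb (1.16) and an exonic SPRY4 region at 10.6 kb (0.83). The falls outside promoters were the FGF10 region (-0.78) and an FGFR1 intron at 25.1 kb (-0.47). All these values were lower than in the fit of all regions, which gave 2.93 for the SPRY1 intron at 136 kb and -0.54 for the FGF10 region. In the fit of all regions 3 of them did not pass. These were the SPRY1 intron at 344 kb (1.41, adjusted p = 0.0512), the SPRY4 region (1.07, adjusted p = 0.101) and the FGFR1 intron (-0.23, adjusted p = 0.093).

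**Figure D4:**
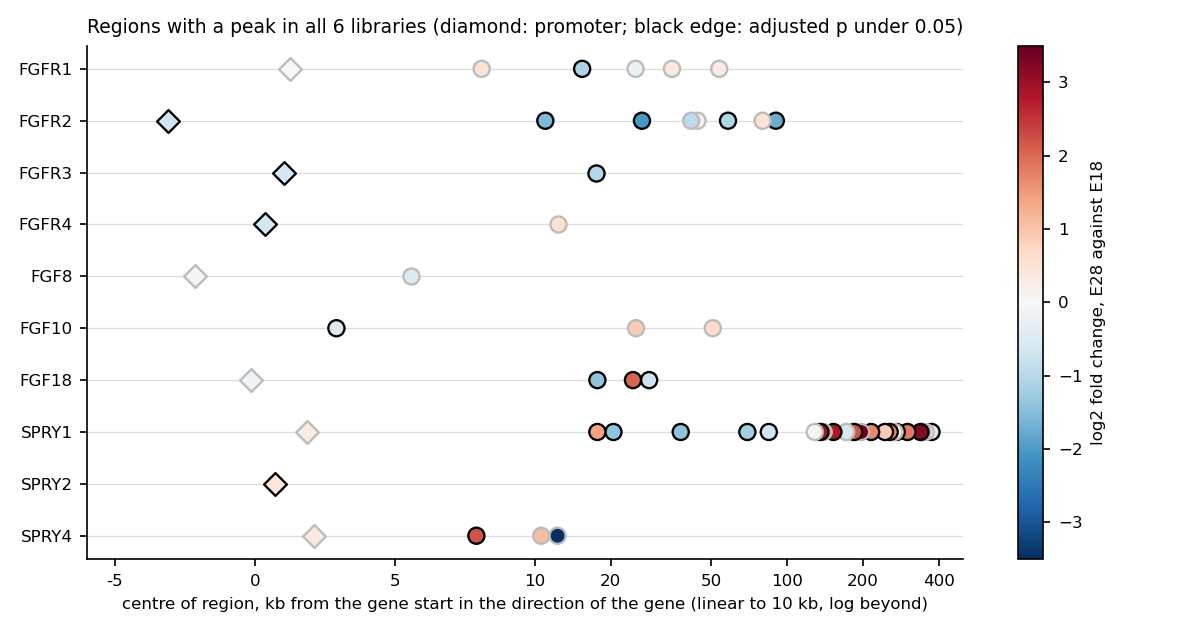
The 55 regions with a peak in all 6 libraries, by gene (vertical axis) and distance of the region's centre from the gene start (horizontal axis, in kb, linear to 10 kb and logarithmic beyond). Colour gives the log2 fold change from E18 to E28, a black edge an adjusted p under 0.05, and diamonds mark promoter regions; SPRY1 regions beyond 100 kb are mostly red (higher at E28) and those between 20 and 100 kb blue.

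Regions that only 1 stage had were counted as a description of the called peaks. A peak in both E18 libraries and in no other was found in 20 of the 162 regions (12.3%), 8 of them in SPRY1 and 5 in FGFR2, against 12.7% of all regions. For both E28 libraries it was 4 regions (2.47%), all in SPRY1, against 2.23%, and for both E21 libraries 1 region (0.617%), in FGF10, against 2.21%. SPRY1 alone held 79 of the 162 regions and FGFR2 30. Regions with a peak in all 6 libraries made up 34% of those of the 10 genes and 26.6% of all.

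The step from E18 to E21, both from somites, gave no call among the 10 windows, where edgeR called 2.17% of all windows and 3 of the 10 had an unadjusted p under 0.05. DESeq2 called 4 of the 10, against 34.4% of all windows. At the level of regions 5 of 55 were called, against 6.59% of all (4.8% higher, 1.78% lower): the SPRY1 introns at 339, 136, 185 and 153 kb rose and that at 37.9 kb fell. Between E21 and E28, 2 of 10 windows passed (FGFR2 lower and SPRY1 higher), against 6.36% of all (5.29% lower, 1.07% higher). With regions counted whole in every library FGFR3 and FGF18 passed as lower too, which made 4, against 10.1%. Called were also 8 of 55 regions, 5 higher and 3 lower, against 7.13% (2.53% higher, 4.61% lower). The 5 rises were SPRY1 introns. The 3 falls were the FGFR2 promoter and the FGF18 regions at 17.7 and 28.4 kb. Among the 17 regions of even covered length 3 were called in the step to E21, against 9.4%, and 4 in that to E28, against 9.55%. The libraries did not overlap in 5 of 10 windows between E18 and E21, against 70.8% of all, and in 10 of 10 between E21 and E28, against 57.2%. When either library of E21 was left out, edgeR called none of the 55 regions in these 2 comparisons and none of all 78533, of which 10655 to 16122 had an unadjusted p under 0.05. These comparisons share libraries with that of E28 and E18.

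Between the breeds no window of the 10 and no region of the 55 was called by edgeR, where 0.00438% of all windows (1 window) and 0% of all regions were called. The unadjusted p was under 0.05 for 1 window and 3 regions, all of SPRY1. The SPRY1 window was higher in DZ than in ZZ at each stage, with a log2 fold change of 0.20 ± 0.07 (edgeR adjusted p = 0.813). The introns at 339, 185 and 216 kb were likewise higher in DZ at each stage, by 0.53 ± 0.09, 0.59 ± 0.12 and 0.58 ± 0.21, each with an adjusted p of 0.846. DESeq2 called 1 of the 55 regions, that at 339 kb (0.53, adjusted p = 0.0150), beside 0.202% of all regions, and none of the 10 windows, against 2.31% of all, the lowest adjusted p being 0.0844. No window had breeds that did not overlap, against 3.38% of all. The other 9 windows had log2 fold changes from -0.42 (FGF8) to 0.06 (FGF10 and SPRY2). With regions counted whole in every library the value of FGF8 was -0.03.

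The rest of the pathway was read from 4 lists of 64 genes in all. Between E28 and E18, 27 of the 64 windows were called, 11 higher and 16 lower, which is near the 42.9% of all windows. Of 19 other genes of the FGF family, not all of which encode receptor ligands, 1 rose and 7 fell, FGF12 (-0.50) and FGF13 (-0.40) among them. FGF16 rose from 10.0 and 10.2 CPM at E18 to 20.6 and 27.4 CPM at E28 (1.21 ± 0.19, adjusted p = 0.00965). FGF3 fell from 9.38 and 10.8 CPM to 1.19 and 0.791 CPM (-3.42 ± 0.43, adjusted p = 0.00641), FGF4 changed by -1.36 and FGF20 by -1.21. Both FGF3 and FGF4 are, like FGF8, ligands of the early embryo.

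Of 14 coreceptors and heparan sulphate genes, which hold FGFs at the cell surface, 1 rose and 6 fell. FGFRL1, the decoy receptor without a kinase, went from 89.1 and 84.6 CPM to 44.1 and 43.8 CPM (-1.02 ± 0.08, adjusted p = 0.00351), but lay 0.46 above the median window per covered base and fell by 0.37 (adjusted p = 0.0134) with regions counted whole in every library. KLB changed by -1.05 and SULF2, a sulphatase of heparan sulphate, by -0.82, while HS2ST1 rose by 0.34. Of 16 intracellular adaptors and kinases 4 rose, among them CRKL (0.55), CBL (0.45) and SHC1 (0.40), and MAPK3 (-0.87) and GAB1 (-0.28) fell. Per covered base MAPK3 lay 0.02 above the median window. Of 15 targets and other feedback inhibitors 5 rose and 1 fell. The ETS factors ETV4 and ETV1, which FGF signals switch on, rose by 0.79 ± 0.11 (adjusted p = 0.00754) and 0.64 ± 0.07 (adjusted p = 0.00576), from 70.1 and 65.6 CPM to 118 and 122 CPM and from 103 and 112 CPM to 165 and 179 CPM. SPRY3, the fourth Sprouty gene, rose by 0.81 ± 0.14 (adjusted p = 0.0107), and the phosphatase gene DUSP5 fell by 0.40, but lay 0.32 above the median window per covered base. The median log2 fold change was -0.15 over the other FGF genes, -0.35 over the coreceptors, 0.10 over the adaptors and 0.19 over the targets, against -0.04 for all windows.

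Cells were grouped into 10 clusters on accessibility far from the 10 genes, their pathway and the markers, and 8 clusters met the marker requirement for a name. A cluster is the same data as the levels in it, so the levels are given without a test, as the median over the 6 libraries with the lowest and highest. The make-up of the libraries changed with the stage. Shares are of the kept barcodes. Neural progenitor-like cells were 18.2% and 29.8% of cells at E18 and 0.638% and 0.455% at E28, and epithelial-like cells 40.2% and 29.9% against 1.91% and 1.65%. Myogenic-like cells, in which 12 of 13 markers were raised, were 7.16% and 7.15% at E18 and 14.6% and 22.2% at E28. Fibroblast and mesenchyme-like cells had 5 of 11 markers raised, and sclerotome and cartilage-like and epithelial-like cells 5 of 9 each. Neural progenitor-like and endothelial-like cells had 6 of 9 each, neuron-like cells 7 of 9 and neural crest and glia-like cells 5 of 6. Unnamed cluster 0 was 2.84% and 2.78% at E18 and 34.8% and 55.0% at E28. Its leading windows include the red cell genes KEL, HBM and HBZ, but it had 3 raised markers of no list, that of blood included. Its median depth was 8113 counts, beside 8084.5 and 8781.5 in the E28 libraries. At the lowest, in 1 library, it was 0.428 times that of the library. The part of these shares in the stage differences was not tested.

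FGFR4 varied most between classes, with the highest class median 3.92 times the lowest. Its median was highest in myogenic-like cells (48.8 CPM, 25.8 to 64.8), then in neural crest and glia-like cells (37.8 CPM, 23.8 to 56.4), and lowest in endothelial-like cells (12.5 CPM). Myogenic-like cells led in the 4 libraries of E21 and E28. At E18 they held 28.2 and 25.8 CPM, below neural crest and glia-like cells with 56.4 and 44 CPM. The median of FGF10 was also highest in myogenic-like cells (67.9 CPM, 52.8 to 74.9), close to fibroblast and mesenchyme-like cells (63.4 CPM, 41.2 to 83.4), and lowest in endothelial-like cells (17.4 CPM). Again myogenic-like cells led at E21 and E28, while at E18 fibroblast and mesenchyme-like cells were higher, with 83.4 and 75.8 CPM against 52.8 and 62.9 CPM. FGFR2 and FGFR3 had their highest median in neural progenitor-like cells, which led in 4 of 6 libraries for each, at 175 CPM (66.0 to 243) and 52.5 CPM (20 to 64.4). Sclerotome and cartilage-like cells followed for FGFR2 (157 CPM, at least 135 in every library) and epithelial-like cells for FGFR3 (47.8 CPM, 21.6 to 52.2). FGFR1 differed little, from 101 CPM in neuron-like to 153 CPM in endothelial-like cells. FGF18 was highest in neuron-like cells in all 6 libraries (126 CPM, at least 100 in each). SPRY1 had medians of 349 CPM in fibroblast and mesenchyme-like cells (270 to 554), 333 CPM in endothelial-like cells (287 to 431) and 145 CPM in neuron-like cells. The median of SPRY4 was highest in endothelial-like cells (75.6 CPM, 74.0 to 99.7). For this gene alone the range of the highest class lay above that of the class next by median (39.6 to 70.0 CPM, unnamed cluster 0). Classes further down still reached into it: epithelial-like (to 96), neural progenitor-like (to 88), neuron-like (to 81.9) and myogenic-like cells (to 80.8). In E28 DZ epithelial-like cells led, with 96 CPM against 74.7 CPM. For the other 9 genes the ranges of the first and the next class overlapped. SPRY2 was highest in endothelial-like cells (109 CPM, 92.2 to 148). The FGF8 window was highest in unnamed cluster 0 (39.4 CPM, 15.6 to 102). Its 102 CPM is from E18 ZZ, where the wide peak runs on to NPM3. The FGF8 region that overlaps no other window had its highest median in neural crest and glia-like cells (13.1 CPM, 9.13 to 18.2).

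**Figure D5:**
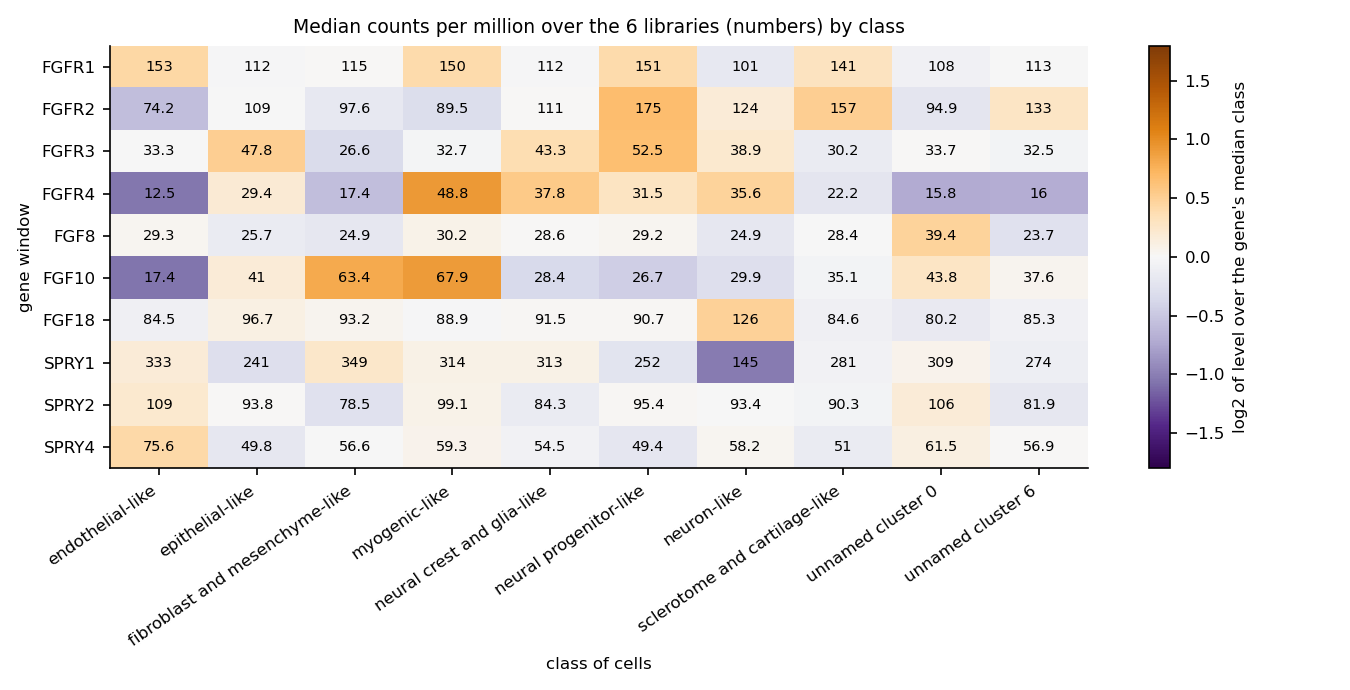
Median CPM over the 6 libraries (numbers) of each gene window (rows) in each class of cells (columns); colour gives the log2 ratio to the gene's median class. FGFR4 and FGF10 have their highest median in myogenic-like cells (48.8 and 67.9), FGF10 with nearly as much in fibroblast and mesenchyme-like cells (63.4), and are lowest in endothelial-like cells (12.5 and 17.4), and SPRY1 is lowest in neuron-like cells (145).

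Inside the classes the stage differences were not all those of the whole libraries. The FGFR2 window was lower in both E28 libraries than in both E18 libraries in 9 of 10 classes, FGF10 in 8, FGFR1, FGFR3 and FGF18 in 7 each, FGFR4 and FGF8 in 2 each, and SPRY1 and SPRY2 in 1 each. With regions counted whole in every library it was lower in 9 classes for FGF10, 6 for FGFR1, 5 for FGFR3 and 6 for FGF8. By peaks in the window SPRY4 was higher in 7 classes, SPRY2 in 6, SPRY1 in 5, FGFR4 in 2 and FGFR2 in 1. Over all windows and classes 33.4% were lower and 32.6% higher in this way. Some of these sums rest on few cells, such as 60 and 43 neural progenitor-like cells at E28. The sums of every class use the peaks called on its whole library. FGFR2 had a peak in 25 and 23 regions at E18 and in 13 and 12 at E28. A fall inside a class therefore cannot be told apart from peaks no longer called in its library. In myogenic-like cells, of which each E18 and E28 library had at least 720, FGFR4 was higher at E28 than at E18 by 0.99 in ZZ and 1.3 in DZ on the log2 scale, although the window of the whole libraries did not pass the test. Its 3′ region held 15.2 and 13.5 CPM in myogenic-like cells at E18, 22.1 and 34.7 CPM at E21 and 33.8 and 47.6 CPM at E28, and its promoter region 11.2 and 11.8, 20.7 and 20.1, and 23.2 and 16.9 CPM. The FGFR1 region with a coding exon at 35 kb showed a like order in these cells, with 10.1 and 12.5 CPM at E18, 24.3 and 25.6 CPM at E21 and 35.2 and 34.0 CPM at E28. FGFR2 was lower in them by 1.11 and 1.32.

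The SPRY1 intron at 339 kb was highest in myogenic-like cells, with a median of 73.6 CPM, followed by fibroblast and mesenchyme-like cells with 44.9 CPM, and lowest in neuron-like cells with 2.76 CPM. In myogenic-like cells it held 11.8 and 19.9 CPM at E18, 71.0 and 76.2 CPM at E21 and 85.5 and 114 CPM at E28. By the median over the 6 libraries the intron at 136 kb was highest in fibroblast and mesenchyme-like cells (25.7 CPM, 7.89 to 77.2). Unnamed cluster 0 followed (21.1 CPM). The median of the intron at 185 kb was highest in neural crest and glia-like cells (26.5 CPM, 19.3 to 42.4), with 2.86 CPM in myogenic-like cells. At E28 these highest classes were 21.1% and 2.81%, and 1.36% and 1.84%, of cells. The medians thus do not show which class held most of the counts at E28. The most reduced FGFR2 intron, at 26.6 kb, was highest in myogenic-like cells (9.06 CPM, next 2.03 CPM in neuron-like cells), where it held 17.3 and 16.3 CPM at E18, 9.80 and 8.31 CPM at E21 and 3.59 and 3.40 CPM at E28.

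As a further description, the gene on another chromosome whose window was most like each member was found over the 60 sums of a library and a class, by Pearson r of log2(CPM + 1) and with no p. The sums share libraries, depth and peak calling. Those of FGF8 include, in E18 ZZ, the wide peak that runs on to NPM3. FGFR4 was most like WNK2 (0.80), FGF10 like HPSE2 (0.82), SPRY2 like PHF20 (0.81), FGFR2 like RFX4 (0.79), FGFR3 like SHISA4 (0.77), FGF18 like LOC102160303 (0.77), SPRY1 like LOC106505633 (0.77), FGF8 like RPL36 (0.76), FGFR1 like CIITA (0.73) and SPRY4 like LOC100157433 (0.68).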

How the data were processed

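Single-cell ATAC-seq was analysed in 6 libraries, 1 for each stage and breed. The authors aligned the reads and called peaks per library with Cell Ranger ATAC, and the labels also name Seurat 3.1.1 and Signac 0.2.2. The deposited values are raw counts of Tn5 cuts per peak and barcode, with no normalization, on the pig genome Sscrofa11.1. Of 64439 barcodes 58809 (91.3%) with 2000 to 30000 counts were kept, with 89816504 to 133037579 counts per library.

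Peaks that overlapped by at least 1 base were merged into regions. Windows (gene body and 2 kb upstream, RefSeq annotation release 106) and regions with a peak in all 6 libraries were tested with edgeR 4.0.16 in R 4.3.3, by the quasi-likelihood F-test on library sums with TMM factors, its filter on low counts and terms for stage and breed, which leaves 2 residual degrees of freedom. A test of stage by breed was not possible with 1 library each. P-values were adjusted by Benjamini-Hochberg over all windows or regions. They rest on the spread that remains between the pooled libraries after the terms for stage and breed. No stage and breed had a second library, so a stage difference particular to 1 breed counts as spread. Alternatives were DESeq2 1.42.0, other barcode limits, normalization and overlap rules, covered length as an offset, regions of even covered length, and leaving out each library. Windows filled by whole merged regions, with and without regions of another window, were added after the data were seen.

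On simulated data for E28 against E18 the window test recovered 71% of 2-fold and 81% of 4-fold changes, and the region test 19% and 67%. With 200 features changed, 28 of 180 window calls and 16 of 102 region calls were false, or 15.6% and 15.7% of the calls made at an adjusted p under 0.05. All 200 changes were rises. In the data 42.9% of windows and 37.1% of regions were called, in both directions, so the simulated shares need not hold for the calls reported here. Clusters came from latent semantic indexing and Leiden clustering at resolution 0.8 on 39226 regions more than 100 kb from the genes and markers described. Doublets were not called, and barcodes above 30000 counts were left out. A cluster was named when at least 3 markers of a list were raised.

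The genes and lists were chosen with earlier results of these data known. Regions named were the promoters and, among called non-promoter regions, up to 5 with the largest change in each direction, over all and over even covered lengths. Other regions, and myogenic-like levels of single regions, were named after their values were seen.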

Additional observations from a re-analysis of the deposited data

Results flagged for a closer look

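The breeds moved in opposite directions at 2 windows, and the difference was not tested, since each breed has 1 library per stage. For FGF8 the log2 ratio of E28 to E18 was -1.22 in ZZ and 0.48 in DZ, a difference of -1.70. The E18 ZZ library, with 75.4 CPM and 13167 covered bases in this window, enters the first ratio only. With regions counted whole in every library the window held 75.4 and 70 CPM at E18 and 69.5 and 70 CPM at E28, and the opposite movement was not seen. For SPRY4 the log2 ratio of E21 to E18 was 0.06 in ZZ and -0.01 in DZ, a difference of 0.07.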

How the results depend on the processing

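Between E28 and E18 the number of windows called stayed within 1.5 times of 7 under DESeq2, other barcode limits, normalization, filter, model and assignment rules. It was 3 of 10 with promoter peaks alone (29.8% of all) and 1 to 6 when a library was left out (6.55% to 41% of all). The regions called were 9 of the 17 with even covered lengths (35% of all) and 5 to 34 without a library (at most 39.3%), the fewest without E18 DZ, when 8740 of all 78533 regions were called. With merged regions counted whole in every library it was 6 (46.9%), and 6 of 9 with regions of no other window (41.6%), FGFR1 being lost in both. Between E28 and E21 the windows called were 4 with regions counted whole (10.1%; FGFR3 and FGF18 passed as well), 6 with DESeq2 (34.9%), 1 with barcodes of 4000 to 60000 counts (5.87%), 4 with covered length as an offset (43.5%), 0 by peak midpoint (4.73%), 0 with promoter peaks alone (2.54%) and 0 to 3 without a library (0.12% to 13.4%). The regions called were 18 with DESeq2 (19.7%), 25 with the offset (32.4%), 4 of 17 with even covered lengths (9.55%) and 0 to 23 without a library (0% to 20.6%). Between E21 and E18 DESeq2 called 4 windows (34.4%), and regions called were 13 with DESeq2 (18.1%), 8 with the offset (17.6%), 3 of 17 with even covered lengths (9.4%) and 0 to 13 without a library (0% to 21.7%). Between the breeds DESeq2 called 1 region (0.202%). The cause of these differences was not tested, apart from the smaller number of regions or libraries where some were left out.

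Covered length as an offset shifts the median window by 0.55 between E28 and E18, and the values here are before that shift is subtracted. The log2 fold change from E18 to E28 reversed to 0.56 for FGFR1, 0.35 for FGFR2, 0.62 for FGFR3 and 0.86 for FGF18. FGFR4, not called by counts (-0.19), was called at 0.45, and FGF8 (-0.46 to 0.25) and FGF10 (-0.18 to 0.02) changed sign without passing on either scale. Between E28 and E21 it reversed to 0.28 for FGFR2, which no longer passed, FGF18, not called by counts (-0.38), was called at 0.60, and the values of FGFR3 (-0.70 to 0.33), FGFR1 (-0.08 to 0.31) and FGF10 (-0.14 to 0.11) changed sign without passing on either scale. Regions with a peak in all libraries numbered 31 under a reciprocal overlap of 50%. At a clustering resolution of 0.3, 5 of 10 genes kept their highest class. Breed was a term of each stage test. Without it 7 windows were called between E28 and E18, and 2 between E28 and E21, where FGF18 passed (adjusted p = 0.0389) and SPRY1 no longer did (adjusted p = 0.10). With 2 residual degrees of freedom, a difference that missed the threshold is not shown to be absent.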
